A study of Rattus norvegicus with 28 samples.

Results

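The 5 genes described here are grouped as neurofilament and mature neuron genes and were followed across all groups of a rat neural progenitor cell study. They are the 3 neurofilament genes Nefl (ENSRNOG00000013658), Nefm (ENSRNOG00000013916) and Nefh (ENSRNOG00000008716), the dendritic microtubule gene Map2 (ENSRNOG00000011841) and the synaptic gene Snap25 (ENSRNOG00000006037). They were chosen by identifier, with earlier results of these data known, and are 5 of the 32545 genes in the deposited table. RNA was sequenced from 28 libraries of material labelled rat neural progenitor cells, with 4 libraries in each of 7 groups. One group is from culture, and the other 6 were exposed to spinal cord that was injured or carries no mention of injury (called uninjured here), for a labelled time of 2, 3 or 4 weeks in each condition. The study concerns the transplantation of such cells into injured spinal cord of rodents. The labels give no genotype, strain, age or donor, and do not say how the exposure was made, whether cord tissue was removed, or whether libraries of a group derive from different animals or cultures. What the p-values measure is then the spread among these libraries, which may be technical. Because the samples are bulk RNA, fewer neurons and less RNA per neuron cannot be told apart.

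Neurofilaments are the intermediate filaments of neurons. They are built from light, medium and heavy chains, which are encoded by Nefl, Nefm and Nefh, and they fill large myelinated axons such as those of spinal motor and sensory neurons. The heavy chain typically appears last as an axon matures. MAP2 binds microtubules of the cell body and dendrites, and some of its transcripts are also made by progenitor and glial cells. SNAP25 is a SNARE protein of the presynaptic membrane that takes part in the fusion of synaptic vesicles. Neural progenitors in culture carry little of the neurofilament chains, whereas the spinal cord is rich in them.

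Levels are in CPM, the count of a gene in 1000000 counts of its library after scaling with TMM factors. Total counts ran from 2605188 to 6908508 in the 20 libraries of culture and weeks 3 and 4, and from 84532 to 446331 in the 8 libraries of week 2, where 1 count is worth up to 7.43 CPM. Injured week 3 replicate 3 had 0 counts for 2755 of 9636 genes that its 3 companions predicted at 20 counts or more, while the other 27 libraries had at most 3. It was left out of the tests, which use 27 libraries, and its zeros count as missing. Its levels are scaled with its TMM factor from all 28 libraries, and those of the others with factors from the 27. No gene names could be paired with the identifiers other than those of the 5 genes, so the progenitor label and the markers of other cell types were not checked against the data. All 5 genes passed the filter on low counts.

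In culture the neurofilament genes were low, with Nefh near the lower end of detection, and Map2 was abundant. At week 2 Nefl, Nefm and Snap25 stood above the culture range in all libraries of both exposures, and Nefh in 2 of the 4 uninjured ones by a wide margin. At weeks 3 and 4 the neurofilament genes were at most at 10.02 CPM in every library but 1, and Nefl in the injured week 3 libraries tested lay below culture. That library, uninjured week 4 replicate 3, had 203 CPM of Nefl, 219 CPM of Nefm, 147 CPM of Nefh and 76.5 CPM of Snap25. Map2 followed a different course, with high levels in culture and injured week 3, intermediate levels in injured week 4 and low levels in the uninjured libraries of weeks 3 and 4 other than replicate 3 of week 4.

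**Figure D1:**
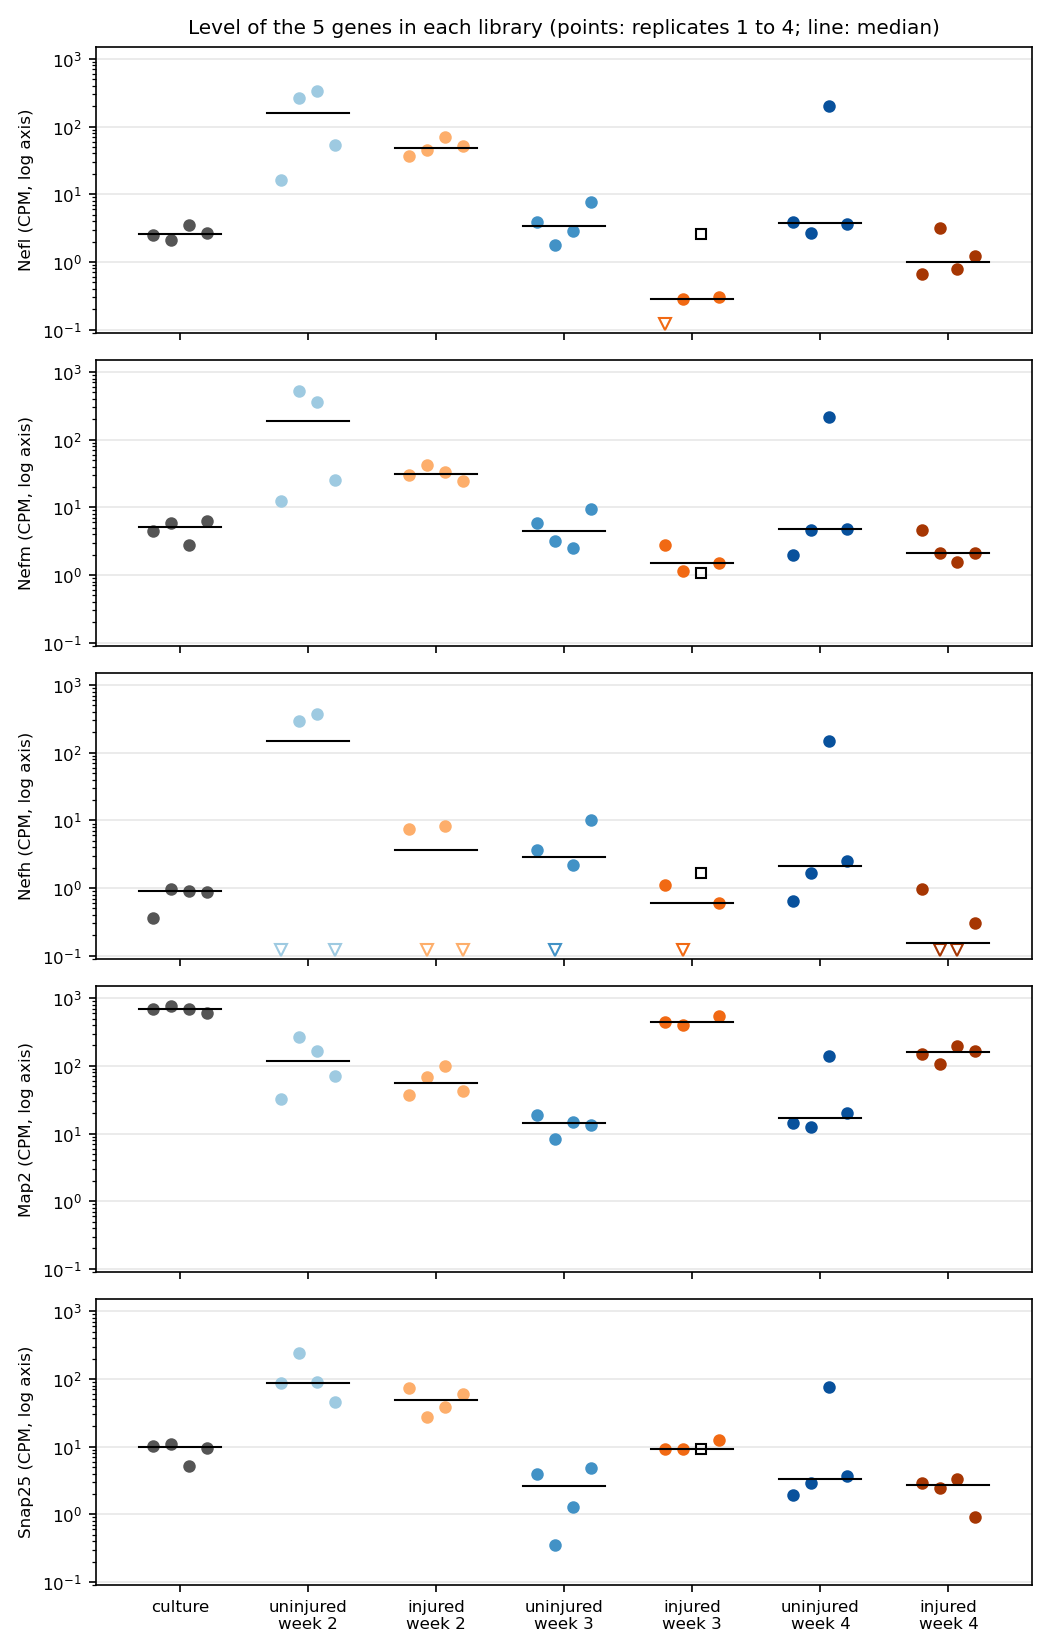
Level of each gene in each library in CPM on a log axis. Points are replicates 1 to 4 from left to right, lines are medians of the libraries in the tests, open triangles are libraries with 0 counts, and open squares are injured week 3 replicate 3, which is not in the tests and is missing for Map2. Uninjured week 4 replicate 3 stands above the other libraries of its group for all 5 genes.

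Nefl, the light chain on which the filament is assembled, stood at 2.499, 2.11, 3.47 and 2.65 CPM in the 4 culture libraries. At week 2 it stood at 16.4, 260, 335 and 54.3 CPM in the uninjured and at 37.2, 44.9, 70.1 and 51.1 CPM in the injured libraries. All 8 week 2 values were above culture, and uninjured replicates 2 and 3 were the highest. At week 3 it stood at 3.92, 1.75, 2.85 and 7.76 CPM in uninjured libraries. In the 3 injured libraries tested it stood at 0, 0.283 and 0.302 CPM, from 2 counts in all, and the 0 allows up to 0.844 CPM at a floor of 3 counts. The injured week 3 level was thus 4.73% of the uninjured one, with an exact 95% interval of 0.561% to 17.8% that covers counting error only. Injured week 3 replicate 3, not tested, had 2.60 CPM of Nefl, above its companions and within the uninjured range. It also had 1.07 CPM of Nefm and 1.68 CPM of Nefh.

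At week 4 Nefl stood at 3.88, 2.67, 203 and 3.68 CPM in uninjured libraries and at 0.651, 3.12, 0.777 and 1.23 CPM in injured libraries. The groups overlapped, since injured replicate 2 lay above uninjured replicate 2. The exact Poisson 95% intervals for the uninjured week 2 libraries were 4.47 to 42.0, 203 to 327, 281 to 395 and 28.9 to 92.8 CPM. The gap between replicates 2 and 3 and the other 2 libraries of that group was therefore larger than counting error.

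Nefm, the medium chain, stood at 4.46, 5.94, 2.74 and 6.33 CPM in culture. At week 2 it stood at 12.3, 520, 356 and 25.0 CPM in uninjured and at 29.7, 42.4, 33.0 and 24.2 CPM in injured libraries. The same uninjured replicates as for Nefl, 2 and 3, were high. At week 3 it stood at 5.88, 3.15, 2.53 and 9.38 CPM in uninjured and at 2.81, 1.13 and 1.51 CPM in injured libraries, and at week 4 at 1.94, 4.61, 219 and 4.81 CPM in uninjured and at 4.55, 2.08, 1.55 and 2.14 CPM in injured libraries. Injured and uninjured ranges overlapped at both weeks. In the RefSeq gene table (assembly GRCr8) Nefl and Nefm are neighbours on chromosome 15 with only 1 pseudogene between them. In the same table Nefm overlaps another gene, and Snap25 overlaps 2 genes. Reads of overlapping genes may be shared, since no source used here gives the strand setting of the counting.

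Nefh, the heavy chain, stood at 0.357, 0.958, 0.912 and 0.884 CPM in culture, from 18 counts in all. At week 2 uninjured replicates 2 and 3 had 296 and 373 CPM, while replicates 1 and 4 had 0 counts, which allow up to 12.3 and 12.5 CPM. The injured week 2 libraries had 7.43, 0, 8.25 and 0 CPM, from 5 counts in all. The floors of these 4 libraries at 3 counts ran from 6.18 to 22.3 CPM, and the group did not pass against culture (log2 fold change 2.14 ± 3.41, with its standard error, edgeR adjusted p = 0.639). At week 3 Nefh stood at 3.62, 0, 2.22 and 10.02 CPM in uninjured and at 1.13, 0 and 0.604 CPM in injured libraries, and at week 4 at 0.647, 1.70, 147 and 2.55 CPM in uninjured and at 0.976, 0, 0 and 0.306 CPM in injured libraries. Only 7 of 27 libraries reached the 2.91 CPM that the filter asks of at least 3 libraries, and none of them was a culture, injured week 3 or injured week 4 library.

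The balance of the 3 chains was described by the share of Nefh in the summed neurofilament counts of a library. The share is not corrected for transcript length, so it is compared between libraries and not between chains. It was 27.5% (95% Wilson interval 22.8 to 32.8) in uninjured week 2 replicate 2, 35.1% (30.8 to 39.6) in replicate 3, and 25.9% (23.7 to 28.1) in uninjured week 4 replicate 3. In culture it was 4.88%, 10.6%, 12.8% and 8.96%, with Wilson intervals that reached at most 26.7%. In injured week 2 replicates 1 to 4 it was 10%, 0%, 7.41% and 0%, with upper limits of 40.4%, 9.89%, 17.6% and 12.1%. The intervals cover counting error only, and the first 3 libraries are named for their high neurofilament level, of which Nefh is a part, so the shares are a description without a test. Uninjured week 3 replicates 1 and 4, whose total neurofilament level was low, held 26.97% and 36.9%, so a high share was not limited to libraries with a high level. Ratios of 2 of the genes were to be tested between groups where every library had at least 10 counts of both genes, and none of the 16 planned ratio tests met this minimum.

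**Figure D2:**
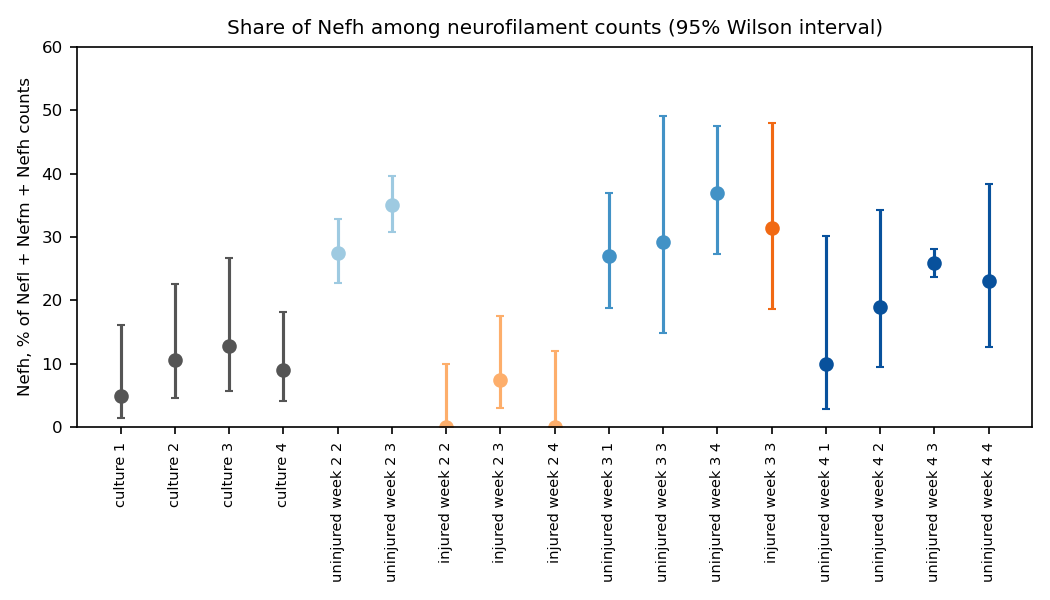
Share of Nefh in the summed counts of Nefl, Nefm and Nefh, in percent, for each library with at least 20 such counts, with 95% Wilson intervals that cover counting error only. The number after the group is the replicate, and injured week 3 replicate 3 is shown but not in the tests. Culture libraries lie between 4.88% and 12.8%, and the 3 libraries with the highest neurofilament levels between 25.9% and 35.1%.

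Map2 had counts in all 27 libraries tested. It stood at 702, 763, 693 and 614 CPM in culture. At week 2 it stood at 32.8, 264, 165 and 71.0 CPM in uninjured and at 37.2, 67.4, 98.9 and 43.0 CPM in injured libraries. All 8 values were below culture, and the 2 groups overlapped. At week 3 it stood at 18.5, 8.40, 14.9 and 13.3 CPM in uninjured and at 447, 396 and 554 CPM in injured libraries. The injured values lay above every uninjured one and below every culture one, and injured week 3 replicate 3 had 0 counts and is missing. At week 4 Map2 stood at 14.2, 12.6, 139 and 20.1 CPM in uninjured and at 151, 107.03, 198 and 168 CPM in injured libraries. Uninjured replicate 3 fell inside the injured range, and the other 3 uninjured libraries were below it.

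By median, the order of Map2 levels was culture (697 CPM), injured week 3 (447), injured week 4 (159), uninjured week 2 (117.9), injured week 2 (55.2), uninjured week 4 (17.2) and uninjured week 3 (14.1). The ranges of culture and injured week 3 did not overlap, nor did those of injured weeks 3 and 4, and each later pair of neighbours in this order overlapped. For the other 4 genes uninjured week 2 had the highest median and injured week 2 the next, and these 2 groups overlapped. For Nefh the injured week 2 median rests on 5 counts in the group. The last places were held by injured week 3 for Nefl (0.283 CPM) and Nefm (1.51 CPM), by injured week 4 for Nefh (0.153 CPM), and by uninjured week 3 for Snap25 (2.59 CPM).

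Of the 5 genes, Map2 has an upstream sequence in the RefSeq promoter table. It is shown because Map2 was the only 1 of the 5 genes found in that table by symbol, and nothing in these data measures the promoter. The 250 bases before the annotated start lie at chr9:75346440-75346689 on the plus strand of GRCr8, read 5′ to 3′, with a match to the E-box CANNTG in capitals.
Map2 upstream: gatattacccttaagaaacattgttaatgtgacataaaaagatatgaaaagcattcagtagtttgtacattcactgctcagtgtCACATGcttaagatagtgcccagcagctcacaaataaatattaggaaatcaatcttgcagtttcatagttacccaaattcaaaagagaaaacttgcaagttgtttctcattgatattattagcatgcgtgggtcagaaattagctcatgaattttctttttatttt
The window is 68.0% A and T, more than in 96.9% of the 33469 windows of the same length in the table, and it holds 1 CG pair. E-boxes are bound by basic helix-loop-helix factors, which include proneural factors. Searched on both strands, CANNTG occurred 1 time here and in 65.5% of all windows, so a match is common. The CCAAT box had 0 matches here and was found in 34.0% of windows. The GC box GGGCGG had 0 matches and was found in 30.5%, and the TATA box TATAAA had 0 matches and was found in 12.9%. Map2 has several annotated transcripts, and which start was used in these libraries was not measured.

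Snap25 stood at 10.2, 11.1, 5.11 and 9.43 CPM in culture. At week 2 it stood at 86.1, 238, 90.8 and 45.9 CPM in uninjured and at 74.3, 27.4, 39.2 and 59.1 CPM in injured libraries, all above culture. At week 3 it stood at 3.92, 0.350, 1.27 and 4.85 CPM in uninjured and at 9.29, 9.32 and 12.7 CPM in injured libraries, so that the injured libraries lay above the uninjured ones and near culture. Injured week 3 replicate 3, not tested, had 9.33 CPM and lay with its companions after TMM scaling. Without TMM factors it had 16.9 CPM, above the 9.46, 9.60 and 13.3 CPM of its companions. At week 4 Snap25 stood at 1.94, 2.91, 76.5 and 3.68 CPM in uninjured and at 2.93, 2.42, 3.37 and 0.919 CPM in injured libraries. Apart from uninjured replicate 3, the week 4 libraries of both conditions lay in the same range, below culture.

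The comparison of injured with uninjured cord asks how the exposed samples differed with injury. At week 3, Map2 was higher by 5.05 ± 0.68 (log2 fold change ± standard error, SE, the form used below) in edgeR's quasi-likelihood test (adjusted p = 1.49e-06, by Benjamini and Hochberg over all genes tested). It was higher in 3 of 3 injured libraries than in all 4 uninjured ones. It was the 1 gene of the 5 called at an adjusted p under 0.05, where 46% of the 14282 genes tested were called. The call held in each of the 18 alternatives, with log2 fold changes of 4.81 to 5.38. Nefl, Nefm and Nefh had log2 fold changes of -4.13 ± 2.34, -1.52 ± 1.61 and -2.69 ± 2.27, and did not pass (edgeR adjusted p = 0.164, 0.48 and 0.361). Snap25 had 1.90 ± 0.97 (edgeR adjusted p = 0.12). The median over the 5 genes was -1.52, against 0.0070 over all genes tested.

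These week 3 values depended on which libraries set the spread. All groups share 1 estimate of a gene's spread, so libraries of other weeks enter the errors at week 3. Without the 3 libraries with the highest Nefl (uninjured week 2 replicates 2 and 3 and uninjured week 4 replicate 3), a choice made after the data were seen, all 5 genes passed at week 3. The 46% of all genes called at week 3 covers the main fit only, and no such share is given for this fit. The log2 fold changes were then -4.14 ± 0.81 for Nefl, -1.51 ± 0.54 for Nefm, -2.70 ± 0.98 for Nefh and 1.90 ± 0.47 for Snap25, with smaller errors and edgeR adjusted p of 4.77e-05, 0.0190, 0.0216 and 0.000854. Over all alternatives their adjusted p ran from 1.82e-05 to 0.305, 0.0190 to 0.692, 0.00162 to 0.595 and 6.68e-05 to 0.234. Nefl at week 3 also moved with the left-out library. With all 28 libraries its log2 fold change was -1.94 ± 1.18 (edgeR adjusted p = 0.208).

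**Figure D3:**
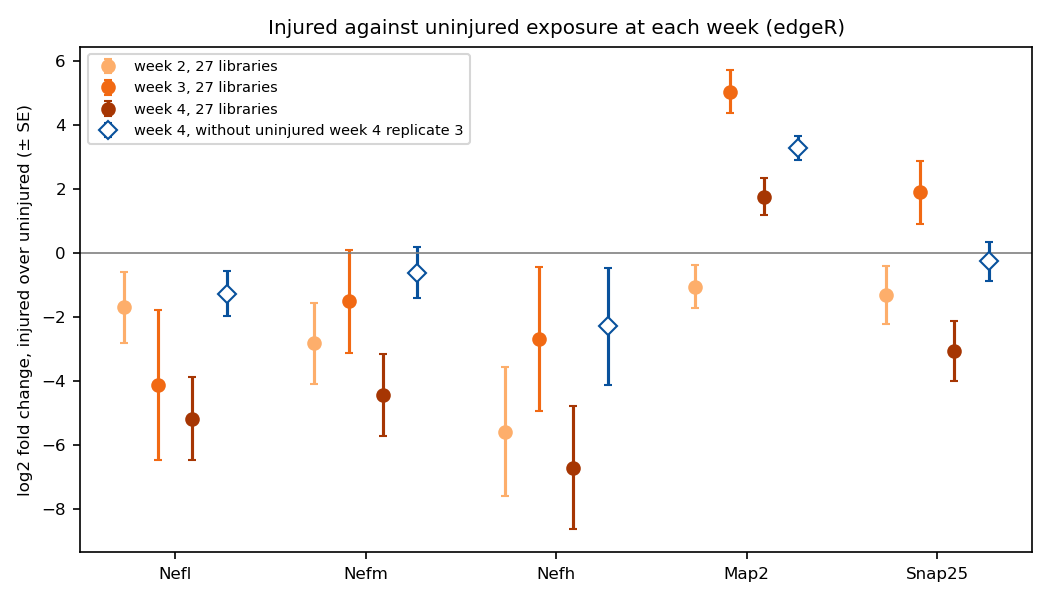
Log2 fold change of injured over uninjured exposure with its standard error for each gene, at week 2 (4 against 4 libraries), week 3 (3 against 4) and week 4 (4 against 4), from the edgeR fit of 27 libraries. Open diamonds give week 4 without uninjured replicate 3. Map2 is above 0 at weeks 3 and 4 in both fits, and the neurofilament genes and Snap25 at week 4 lie closer to 0 in the fit without that library.

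At week 4 all 5 genes passed the test, where 27.3% of the genes tested were called, but 4 of these calls rested on 1 library. Nefl, Nefm, Nefh and Snap25 had log2 fold changes of -5.19 ± 1.303, -4.45 ± 1.28, -6.73 ± 1.93 and -3.06 ± 0.94 (edgeR adjusted p = 0.00437, 0.0119, 0.0114 and 0.0173). Without uninjured replicate 3 they were -1.27 ± 0.71, -0.61 ± 0.80, -2.30 ± 1.84 and -0.26 ± 0.61, and none passed (edgeR adjusted p = 0.214, 0.656, 0.432 and 0.824). Over all alternatives, adjusted p ran from 3.95e-28 to 0.214 for Nefl, 1.2e-25 to 0.656 for Nefm, 8.68e-29 to 0.432 for Nefh and 7.27e-11 to 0.824 for Snap25. Leaving out any of the other 7 libraries of week 4 ended none of these 4 calls. Map2 went the other way, at 1.77 ± 0.58 (edgeR adjusted p = 0.025). Without uninjured replicate 3 its difference was larger and steadier, at 3.29 ± 0.38 (edgeR adjusted p = 1.88e-09). The adjusted p of Map2 ran from 1.28e-10 to 0.251 over all alternatives, and it was above 0.05 when any other uninjured week 4 library, or injured replicate 3 or 4, was left out. The median over the 5 genes was -4.45, against 0.0071 over all genes tested.

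**Figure D4:**
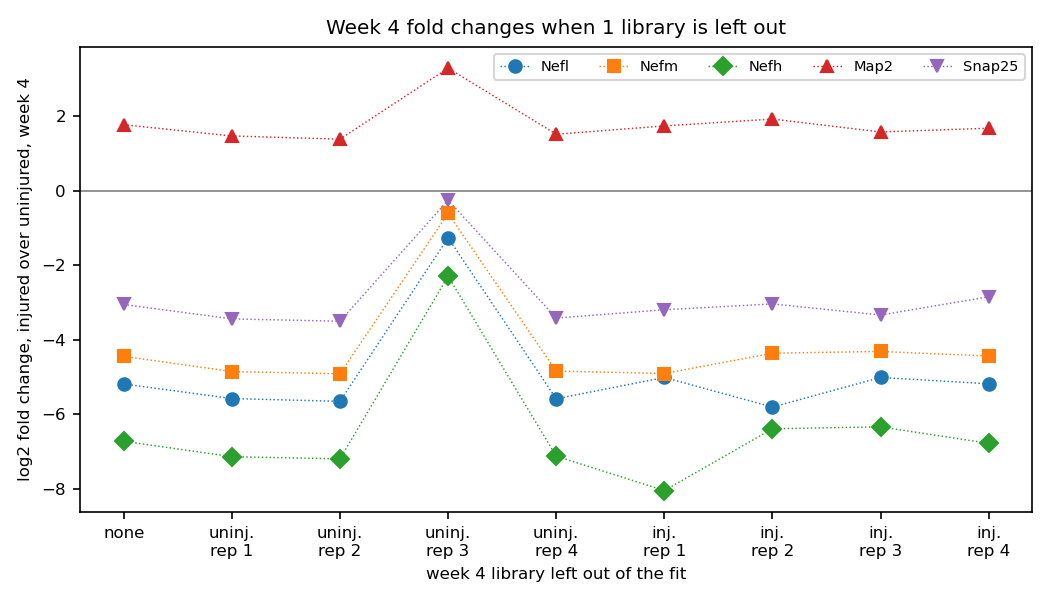
Log2 fold change of injured over uninjured exposure at week 4 for each gene, with all 8 week 4 libraries (none) and with each of them left out of the fit in turn. Leaving out uninjured replicate 3 moves Nefl from -5.19 to -1.27 and Map2 from 1.77 to 3.29, and the other libraries move the values less.

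At week 2 none of the 5 genes passed, where 3.37% of genes were called. The unadjusted p was under 0.05 for Nefm and Nefh. The log2 fold changes were -1.70 ± 1.11 for Nefl, -2.83 ± 1.26 for Nefm, -5.59 ± 2.01 for Nefh, -1.05 ± 0.68 for Map2 and -1.31 ± 0.90 for Snap25 (edgeR adjusted p from 0.117 to 0.436). DESeq2 called 1 of them and edgeR without a filter on low counts called 3, while the 3.37% covers the main adjusted test only. The negative values of the neurofilament genes rest on uninjured replicates 2 and 3, since uninjured replicate 1 lay below every injured library for Nefl and Nefm. Without the 3 libraries highest in Nefl the log2 fold changes turned to 0.58 for Nefl, 0.82 for Nefm and 0.35 for Map2, and none of the 5 genes passed.

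The injury effect differed between weeks 3 and 4 for 2 of the 5 genes, where 18.7% of genes were called. For Map2 the effect was smaller at week 4 with a log2 difference of -3.28 ± 0.85 (edgeR adjusted p = 0.00714). For Snap25 the difference was -4.95 ± 1.35 (edgeR adjusted p = 0.0108). Without uninjured week 4 replicate 3 both were smaller, at -1.89 for Map2 and -2.28 for Snap25 (edgeR adjusted p = 0.00393 and 0.0422). The range over all alternatives was 3.37e-15 to 0.126 for Map2 and 1.14e-13 to 0.0422 for Snap25. With all 28 libraries, where the missing Map2 value enters as 0, the Map2 difference was -3.12 and did not pass (edgeR adjusted p = 0.126). The neurofilament genes did not pass (edgeR adjusted p of 0.944, 0.452 and 0.603 for Nefl, Nefm and Nefh).

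Exposed samples were next set against culture. In these 6 comparisons the same 4 culture libraries serve as the reference, so the comparisons are not independent. Map2 was lower than culture in uninjured exposure at each week. Its log2 fold changes were -2.35 ± 0.61 at week 2, -5.63 ± 0.68 at week 3 and -3.92 ± 0.62 at week 4 (edgeR adjusted p = 0.00376, 2.81e-07 and 1.52e-05). With injury, Map2 had -3.40 ± 0.66 at week 2 and -2.15 ± 0.57 at week 4 (edgeR adjusted p = 0.00023 and 0.00472). At injured week 3 it was -0.57 ± 0.60 and did not pass (edgeR adjusted p = 0.596), although all 3 injured values lay below the 4 culture values. It passed there in limma voom and when only the 2 groups were fitted.

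The neurofilament genes were above culture at uninjured week 2, by 5.98 ± 1.20 for Nefl, 5.57 ± 1.22 for Nefm and 7.73 ± 1.63 for Nefh (edgeR adjusted p = 0.000438, 0.000995 and 0.000678). Snap25 was above culture there by 3.68 ± 0.85 (edgeR adjusted p = 0.00136). All 5 genes were called in that comparison, where 42.1% of genes were called. The size of the neurofilament values rests on replicates 2 and 3. Without the 3 libraries highest in Nefl, Nefl had 3.66 and Nefm 1.89, and both still passed (edgeR adjusted p = 4.16e-05 and 0.0475). Nefh turned to -4.36 and lost its call (edgeR adjusted p = 0.644, the highest of its alternatives), since both remaining libraries have 0 counts of Nefh. At injured week 2, Nefl and Snap25 were above culture by 4.28 ± 1.26 and 2.37 ± 0.91 (edgeR adjusted p = 0.00903 and 0.0387), and 3 of the 5 genes were called against 45% of all genes. The Snap25 call ended when any of injured replicates 1, 3 or 4 or culture replicates 1, 3 or 4 was left out (edgeR adjusted p from 0.0541 to 0.107, and 1.4e-06 to 1 over all alternatives). With the library total as a covariate, no gene of the 5 passed at week 2 in either condition. Week 2 and low depth coincide, so the week and the depth cannot be told apart in these comparisons.

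At uninjured week 3 only Map2 passed against culture, where 49.9% of genes were called, and at injured week 3 none did, where 19.2% were called with no gene of the 5 at an unadjusted p under 0.05. Nefl at injured week 3 passed in 5 of 18 alternatives, which were DESeq2, limma voom, no filter on low counts, the compared groups alone and the fit without the 3 libraries highest in Nefl. At injured week 4 Map2 alone passed, where 33.6% were called. At uninjured week 4, 4 genes passed, where 46.3% were called, but the log2 fold changes of Nefl, Nefm and Nefh went from 4.26, 3.52 and 5.50 to 0.19, -0.48 and 0.92 without replicate 3 and no longer passed (edgeR adjusted p = 0.827, 0.606 and 0.632, the highest of their alternatives). Snap25 turned from 1.19 ± 0.78 (edgeR adjusted p = 0.221) to -1.77 ± 0.52 without that library (edgeR adjusted p = 0.0048). Its adjusted p over all alternatives ran from 0.0048 to 0.661.

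Between weeks, all 5 genes were called lower in uninjured exposure at week 3 than at week 2. The log2 fold changes were -5.39 ± 1.19 for Nefl, -5.45 ± 1.24 for Nefm, -5.44 ± 1.42 for Nefh, -3.27 ± 0.66 for Map2 and -5.36 ± 0.96 for Snap25 (edgeR adjusted p from 0.00055 to 0.0105). All 5 were called, where 20.3% of genes were called and 8.12% were called lower, and with the library total as a covariate none was. Without the 3 libraries highest in Nefl, 3 of the 5 were called, Nefm had -1.79 (edgeR adjusted p = 0.1, and 3.91e-40 to 0.657 over all alternatives) and Nefh turned to 6.64 (edgeR adjusted p = 0.36, and 7.17e-34 to 0.781), against week 2 libraries with 0 counts. In injured exposure Nefl fell by 7.81 on the log2 scale from week 2 to week 3 (SE 2.03, edgeR adjusted p = 0.00383), to a level of 0.352% of that at week 2, with an exact 95% interval of 0.0419% to 1.32% for counting error. Map2 rose by 2.83 ± 0.68 (edgeR adjusted p = 0.00177), so that these 2 genes moved in opposite directions. These were 2 of the 5 genes, where 44.7% of genes were called, and with the library total as a covariate neither was. With all 28 libraries Nefl had -5.79 and was still called, and Map2 had 2.43 and was not (edgeR adjusted p = 0.0514, and 3.76e-16 to 0.454 over all alternatives). From week 3 to week 4, at similar depth, none of the 5 passed in uninjured exposure, where 0.525% of genes were called, although all 5 had an unadjusted p under 0.05 through replicate 3, and DESeq2 called 4. The 0.525% covers the main adjusted test only, not the unadjusted p or DESeq2. None passed in injured exposure, where 21.6% were called. There Map2 had -1.58 ± 0.59 (edgeR adjusted p = 0.0617, and 3.22e-08 to 0.383 over the alternatives), and its 4 week 4 values lay below all 3 week 3 values. Its unadjusted p was 0.0142, and DESeq2 called 2 of the 5 genes, while the 21.6% covers the main adjusted test only.

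Uninjured week 4 replicate 3 was examined further, because it decided the neurofilament results of week 4. It had 538 counts of Nefl, 580 of Nefm, 390 of Nefh, 368 of Map2 and 203 of Snap25, from 2605188 counts in all. That total was the lowest outside week 2, yet 20098 genes had counts, the most of any library. The other 3 libraries of its group had 17623, 17704 and 18302 such genes. Its levels were 52.2, 45.4, 57.7, 6.90 and 20.8 times the highest of the other 3 libraries of its group for Nefl, Nefm, Nefh, Map2 and Snap25. Of the 10226 genes with at least 20 counts in this library, 2 had a larger ratio than Nefh, 3 a larger one than Nefl, 4 than Nefm and 8 than Snap25. In all, 30 of 14282 genes (0.21%) stood at 10 times or more, and 4 of the 5 genes followed here were among them. The library was picked because these genes are high in it, so their places and this count are a description and not a test. No other library had any of the 5 genes at 10 times the rest of its group. The other libraries had 0 to 34 genes over that limit. The highest counts, 34, 31 and 22, were in injured week 2 replicates 2, 3 and 4, which have low depth. Among the other libraries of culture and weeks 3 and 4, the highest count was 11, in injured week 3 replicate 1. The markers of neurons and other cell types could not be read in this library, because the identifiers are not paired with names, so the part of cord tissue in its values was not tested.

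Across libraries the 3 neurofilament genes followed one another, and Map2 did not follow them. Likeness was the Pearson r of log2 CPM (prior count of 2) over the 19 libraries of culture and weeks 3 and 4, given as a description. The libraries share depth and scaling, and 1 of them dominates the values. Of 14281 other genes, Nefm was the nearest to Nefl (r = 0.893) and Nefh the nearest to Nefm (r = 0.921), while Nefh was in place 5 for Nefl (r = 0.862). Snap25 had r of 0.451, 0.641 and 0.588 with Nefl, Nefm and Nefh, and Map2 had -0.248, -0.0604 and -0.209. Without uninjured week 4 replicate 3 (18 libraries), r fell to 0.582 between Nefl and Nefm and to 0.720 between Nefm and Nefh, so that Nefm was then in place 1470 for Nefl. The r of Snap25 with Nefl, Nefm and Nefh was then -0.266, 0.139 and 0.0929, so that its likeness to them rests on that library. The r of Map2 with Snap25 was 0.558 over 19 and 0.711 over 18 libraries. Over the 19 libraries the gene nearest to Map2, ENSRNOG00000017974, had r = 0.985, and the one nearest to Snap25, ENSRNOG00000052549, had r = 0.877. Neither identifier is paired with a name in the sources used here. Over the 18 libraries other genes were nearest, with r = 0.992 for Map2 and r = 0.899 for Snap25.

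**Figure D5:**
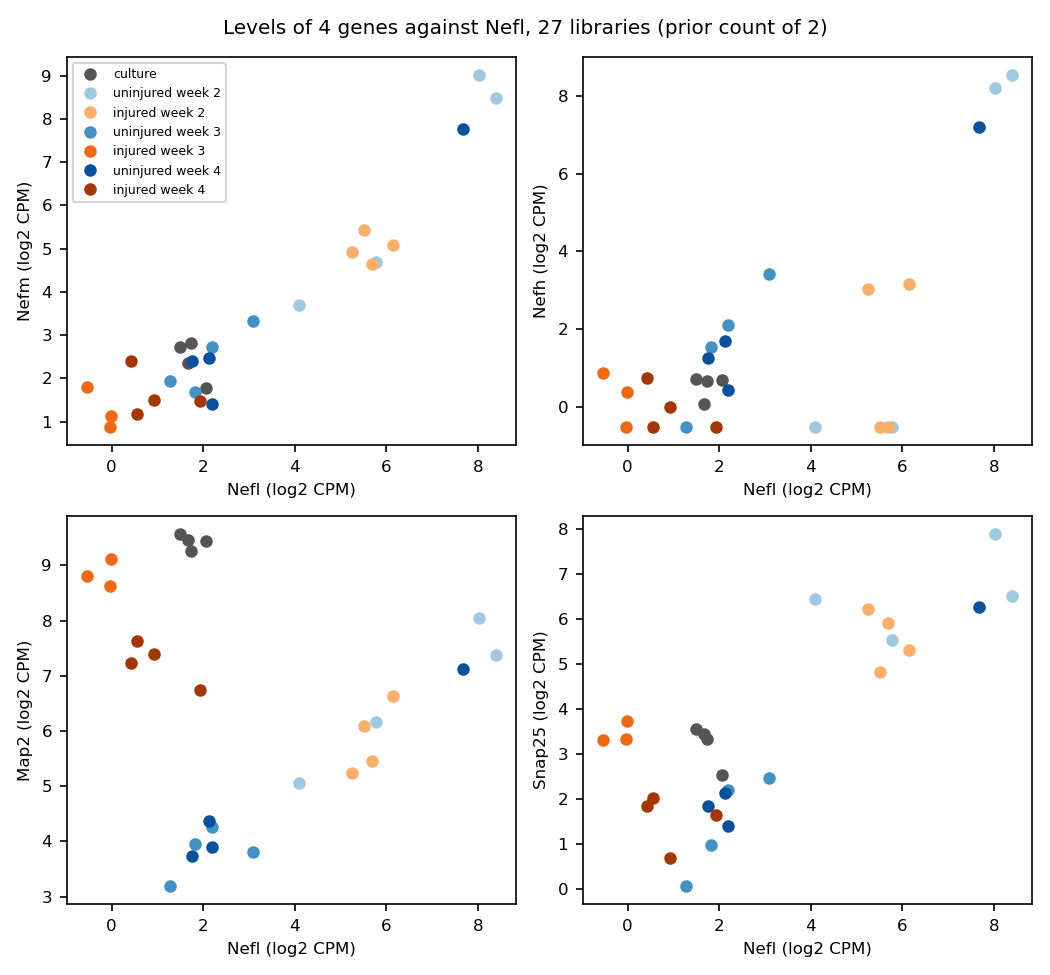
Level of Nefm, Nefh, Map2 and Snap25 against that of Nefl in the 27 libraries tested, in log2 CPM with a prior count of 2. Uninjured week 2 replicates 2 and 3 and uninjured week 4 replicate 3 lie at the upper right in the Nefm and Nefh panels, while the culture and injured week 3 libraries combine low Nefl with high Map2.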

How the data were processed

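Strand-specific libraries for very small inputs were made from total RNA, per the labels' protocols. The deposited table gives unnormalized read counts by gene. Per the submitters' processing notes, the tools included STAR 2.5.1 and featureCounts 1.5.1, and also StringTie 1.3.3, Trim Galore 0.4.1, FastQC 0.11.5 and Picard, with no roles given. The notes name a mouse build although the identifiers are rat, so the genome used is not settled. Neither the annotation release nor the strand setting nor the treatment of duplicates is given in the sources used here.

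Under R 4.3.3, edgeR 4.0.16 was applied to the counts (robust quasi-likelihood test, TMM scaling, filterByExpr on the groups). The fit held 27 libraries and 7 group means, with 20 degrees of freedom left. In all 14282 genes passed the filter, over which p-values were adjusted (Benjamini-Hochberg), and 14 comparisons were made. A standard error is the fold change divided by the square root of F. The test was also run on simulated counts in which no library was set apart from its group, and no result here rests on that run. Alternatives used DESeq2 1.42.0, limma 3.58.1 voom, other scalings, filters and library sets. The 5 genes, and the lists of related genes and cell type markers, were chosen with earlier results of these data known. The lists were not run, because 0 identifiers could be paired with symbols. The names of the 5 genes come with their selection, and all 5 are named whatever their result. For genes with a like pattern, the rule was the highest r with each member. Replicates are numbered in order of deposition.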

Additional observations from a re-analysis of the deposited data

Results flagged for a closer look

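Of 30 groups of 4 values (5 genes in the 6 groups with 4 libraries), 6 held a library set far apart from the other 3 by Dixon's ratio. By chance about 1 in 20 groups, or 1.5 of 30, would if the values were normally distributed, which was not tested. In uninjured week 4, replicate 3 was high for all 5 genes, at 203 CPM for Nefl, 219 CPM for Nefm, 147 CPM for Nefh, 139 CPM for Map2 and 76.5 CPM for Snap25. These 5 values come from 1 library and are not separate events. In culture, replicate 1 was low for Nefh, at 0.357 CPM from 2 counts, where the other 3 libraries had 5 or 6 counts. Its exact Poisson 95% interval of 0.0432 to 1.29 CPM covered the values of the other 3.

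The effect of injury differed between weeks 3 and 4 for Map2, by a log2 difference of -3.28, and for Snap25, by -4.95 (edgeR adjusted p = 0.00714 and 0.0108). Map2 was higher in injured exposure at both weeks. Snap25 lay above all uninjured libraries in 3 of 3 injured libraries at week 3, a difference that missed the threshold, and in 0 of 4 at week 4.

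Injured week 3 replicate 3, which was not in the tests, had 9.33 CPM of Snap25 from 61 counts, above the 4 uninjured week 3 libraries.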

How the results depend on the processing

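No paired analysis was possible because replicates were numbered by accession and no label links libraries across groups. Week 2 libraries had few counts, and a count of 0 allows 6.18 to 22.3 CPM of Nefh, depending on the library. Counts of the 5 genes called are given below as main value, then alternative. The number of all genes called also moved between alternatives, as given below for some of them. For the other alternatives it is not given, so their counts of the 5 genes are not set against a share of all genes. They describe how the calls moved and are not a result about these genes. With all 28 libraries, injured week 4 against culture went from 1 to 0 and the difference of the injury effect from 2 to 1. With RLE or upper quartile factors, or without week 2 libraries, injured week 4 against week 3 went from 0 to 1. DESeq2 gave 1, 3, 2, 1, 2, 2, 4 and 4 for injured against uninjured at weeks 2 and 3, uninjured week 3, injured week 3 and injured week 4 against culture, injured and uninjured week 4 against week 3, and injured week 3 against week 2 (main 0, 1, 1, 0, 1, 0, 0 and 2). limma voom gave 3 for injured against uninjured at week 3 (main 1) and at week 4 (main 5), and 2 for uninjured weeks 3 and 4 and injured weeks 3 and 4 against culture and for injured week 4 against week 3 (main 1, 4, 0, 1 and 0). Without a filter on low counts, 9 comparisons gave 2 to 5 (3 and 5 for injured against uninjured at weeks 2 and 3, 4 for the difference of the effect). With the library total as a covariate, the 4 comparisons of week 2 with culture or week 3 gave 0 (main 5, 3, 2 and 5) and uninjured week 4 against culture 2. Fitting only the groups compared gave 0 at week 4 and 3 at week 3 for injured against uninjured, and 1 to 4 in 6 others, with up to 3 genes under the filter. Without the 3 libraries highest in Nefl, chosen after the data were seen, injured against uninjured gave 5 at week 3 and 1 at week 4, and 7 others gave 1 to 4.

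Leaving out 1 library gave 1 to 5 for injured against uninjured at week 4, 2 to 4 for uninjured week 4 against culture, 2 to 3 for injured week 2 against culture and 0 to 1 for uninjured week 4 against week 3. In the other 10 comparisons the count did not move. Among fold changes called in either fit, the directions that turned were Snap25 at injured week 2 against culture with the library total as a covariate (-0.026), and Nefm and Snap25 at uninjured week 4 against culture without replicate 3 (-0.48 and -1.77) or without the 3 libraries (-0.36 and -1.64). Over each library left out in turn they ran from -0.48 to 3.93 and from -1.77 to 1.58. Without the 3 libraries Nefh also turned at uninjured week 2 against culture (-4.36) and week 3 against week 2 (6.64), where the 2 week 2 libraries left have 0 counts. Fold changes called in neither fit also turned in some alternatives. Without uninjured week 4 replicate 3 these were the neurofilament values of the injury effect (Nefl from -1.06 to 2.75) and of uninjured week 4 against week 3 (Nefl from 3.67 to -0.25). The cause of the other changes was not tested.

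RLE factors shifted the median of all genes at week 3, injured against uninjured, from 0.0070 to 0.26, and the share of higher genes among those called from 45.0% to 55.6%. Map2 at 5.05 is far beyond that shift. Over all genes, week 4 calls went from 3895 to 2396 with all 28 libraries, 6269 without week 2 and 6557 with voom, and week 2 calls from 481 to 300, 1543 (DESeq2) and 0 (voom, or week 2 alone). Of 149 such counts, 34 differed by more than 1.5 times from the main one.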

Other observations

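Besides the 4 genes described above, 26 genes stood at 10 times or more in uninjured week 4 replicate 3. These 26 were chosen on that library, where they summed to 1331 CPM, against 47.1 to 60.9 CPM in the other 3 libraries of its group. The uninjured week 2 libraries entered the choice through the filter on low counts, so their values are not independent of it. There the 26 genes summed to 348, 1119, 1458 and 388 CPM in replicates 1 to 4. The 2 highest were replicates 2 and 3, which also had the highest Nefl, at 260 and 335 CPM. The injured week 2 libraries had 817, 354, 371 and 339 CPM. In culture the same genes summed to 399 to 481 CPM with Nefl at 2.11 to 3.47 CPM, and in injured week 3 to 477 to 584 CPM with Nefl at 0 to 0.302 CPM, so their sum did not follow Nefl across all groups. No names are paired with these identifiers, and no test was made.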
